A study of Oryza sativa with 12 samples.

Results

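SWEET proteins are sugar transporters of plant membranes, and their transcripts were followed here in developing seeds of 3 high-lysine rice lines and their wild type. The members are the array probe sets assigned to exactly 1 gene, where that gene carries the symbol or synonym of 1 of 10 named SWEET genes. The rule found 11 probe sets for 8 genes, of 57381 probe sets on the array, of which 22436 have 1 assigned gene and together cover 17905 genes. SWEET1A, SWEET2B and SWEET14 have 2 probe sets each, and SWEET2A, SWEET4, SWEET11, SWEET15 and SWEET16 have 1 each. The other 2 genes of the rule, SWEET3A and SWEET13, had no assigned probe set and are not analysed here. All 11 probe sets passed the filter on low signal, which asked for a signal above the array's median on at least 3 of the 12 arrays.

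SWEET proteins are uniporters that let sugar move down its gradient in either direction across a membrane. In cereal seeds the embryo and endosperm have no symplastic link to the mother plant, so sugar has to leave maternal cells and enter filial ones through transporters. In rice, SWEET4 is known for hexose import into the seed, SWEET11 and SWEET15 for sucrose release on the way to the endosperm, and SWEET14 for a part in grain filling beside SWEET11. SWEET2B is a vacuolar glucose transporter whose structure has been solved, while the Arabidopsis relatives of SWEET2 and SWEET16 act at the vacuolar membrane and Arabidopsis SWEET1 carries glucose.

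The groups were the transgenic lines GR14, 35S-15 and HFL1, each labelled as having a high lysine level, and the wild-type variety Wuxiangjiang9 (WT), labelled as normal in lysine. Each group had 3 arrays of field-grown developing seed, aged 10 days after flowering by the sample labels and 15 days by the series' design text. The labels name no transgene, promoter or number of independent plants for any line. Earlier work on these lines, but not the labels, describes HFL1 as combining the modifications of 35S-15 and GR14. Separate plants are not stated as the source of the 3 arrays of each group, so p-values reflect the spread among these arrays alone, and part or all of that spread may be technical. In a bulk seed sample, fewer cells of a type and less RNA per cell cannot be told apart.

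The deposited values are MAS5 signals, a linear brightness per probe set, and levels are given here as log2 of that signal. Array medians lay between 5.67 and 6.09 on this log2 scale, and rank correlations between arrays ran from 0.925 to 0.971. The 3 WT arrays did not look alike. The reporter probe set RPTR-Os-K01193-1_at read at most 4.67 on the 9 arrays of the lines, against 4.53 on WT array 1, 13.51 on WT array 2 and 13.78 on WT array 3. A chaperone gene of the endoplasmic reticulum, OsBiP4, read at most 6.13 on the arrays of the lines, against 4.88, 12.71 and 13.17 on the same WT arrays. WT arrays 2 and 3 thus stood apart from WT array 1 and from all lines, so each comparison with WT was also run with WT array 1 as the only WT array, its spread then being taken from the other groups. Among the actin controls, the 3' probe set exceeded the 5' probe set by 6.43 log2 units on GR14 array 3, more than on any other array. That array also had the highest difference for the Bs-lys (1.61) and Bs-phe (2.10) controls, among others. The controls were mixed, since ef1a had its lowest difference there (-2.29) and several others peaked on other arrays. Endosperm markers were present, since 9 of 10 such genes with a probe set passed the filter and only GLUB4 lay below the median on every array.

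SWEET2B was far lower in GR14 than in WT and in the other lines, and it was the 1 SWEET gene that passed the test between GR14 and WT. Its S1_at probe set read 5.58, 1.81 and 3.08 on the GR14 arrays, 9.90, 9.15 and 8.21 on the 35S-15 arrays, 9.89, 9.23 and 9.71 on the HFL1 arrays, and 9.81, 9.55 and 8.42 on the WT arrays. In signal units these are 47.9, 3.51 and 8.47 in GR14 and 898, 750 and 341 in WT. No GR14 array came near the lowest array of any other group, and all 3 GR14 values lay below the median of their own array, whereas all 9 others lay above it. The mean log2 level was 3.49 ± 1.92 in GR14, 9.09 ± 0.85 in 35S-15, 9.61 ± 0.34 in HFL1 and 9.26 ± 0.74 in WT (SD, n = 3 arrays each). GR14 was thus the lowest of the groups, and the other 3 overlapped each other.

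The log2 difference of this probe set, GR14 minus WT, was -5.77 ± 0.73 (SE), with a 95% interval from -7.35 to -4.18 and an adjusted p of 0.000419 in limma. Values this far below the array median are poorly measured on a log scale. The size was therefore also computed with each GR14 value raised to at least its array's median. On that basis the mean of SWEET2B was 10.1-fold lower in GR14 than in WT, 8.98-fold lower than in 35S-15 and 12.9-fold lower than in HFL1. These sizes allow for the low GR14 signals but not for the spread among arrays, so they are not lower limits. No detection calls were used, so the median stands in for a detection limit.

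The second SWEET2B probe set, whose name ends in x_at, gave the same picture within a smaller range. It read 6.03, 4.55 and 6.08 on the GR14 arrays, 9.97, 9.29 and 8.72 on the 35S-15 arrays, 9.38, 9.24 and 9.28 on the HFL1 arrays, and 9.58, 9.72 and 8.47 on the WT arrays. GR14 again lay apart from every other group, although 2 of its 3 arrays were just above their array median. GR14 minus WT was -3.70 ± 0.43 (SE), with an adjusted p of 0.000216 in limma. With GR14 values raised to the array medians as above, the mean was 9.65-fold lower in GR14 than in WT, again without the spread among arrays. An x_at probe set holds probes that can match other transcripts, so its reading may include signal that is not SWEET2B. The 2 probe sets correlated at r = 0.97 over the 12 arrays and at 0.88 over the 9 arrays outside GR14, which describes this data set and carries no test.

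HFL1 and 35S-15 each had SWEET2B well above GR14. HFL1 minus GR14 was 6.12 ± 0.73 for the S1_at probe set (limma adjusted p = 0.000216) and 3.74 ± 0.43 for the x_at probe set (adjusted p = 0.000166). For 35S-15 minus GR14 the differences were 5.59 ± 0.73 (adjusted p = 0.000447) and 3.77 ± 0.43 (adjusted p = 0.000163) for the same probe sets. These comparisons share the 3 GR14 arrays with each other and with GR14 minus WT, so they are not independent of one another. With WT array 1 as the only WT array, GR14 minus WT was -6.32 (adjusted p = 0.0112) for the S1_at probe set and -4.03 (adjusted p = 0.00452) for the x_at probe set, so the difference was as large without the WT arrays that stand apart. Without GR14 replicate 3, the array with the high actin difference, GR14 minus WT was -5.56 (adjusted p = 0.00256) and -3.97 (adjusted p = 0.000556) for the same probe sets.

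**Figure D1:**
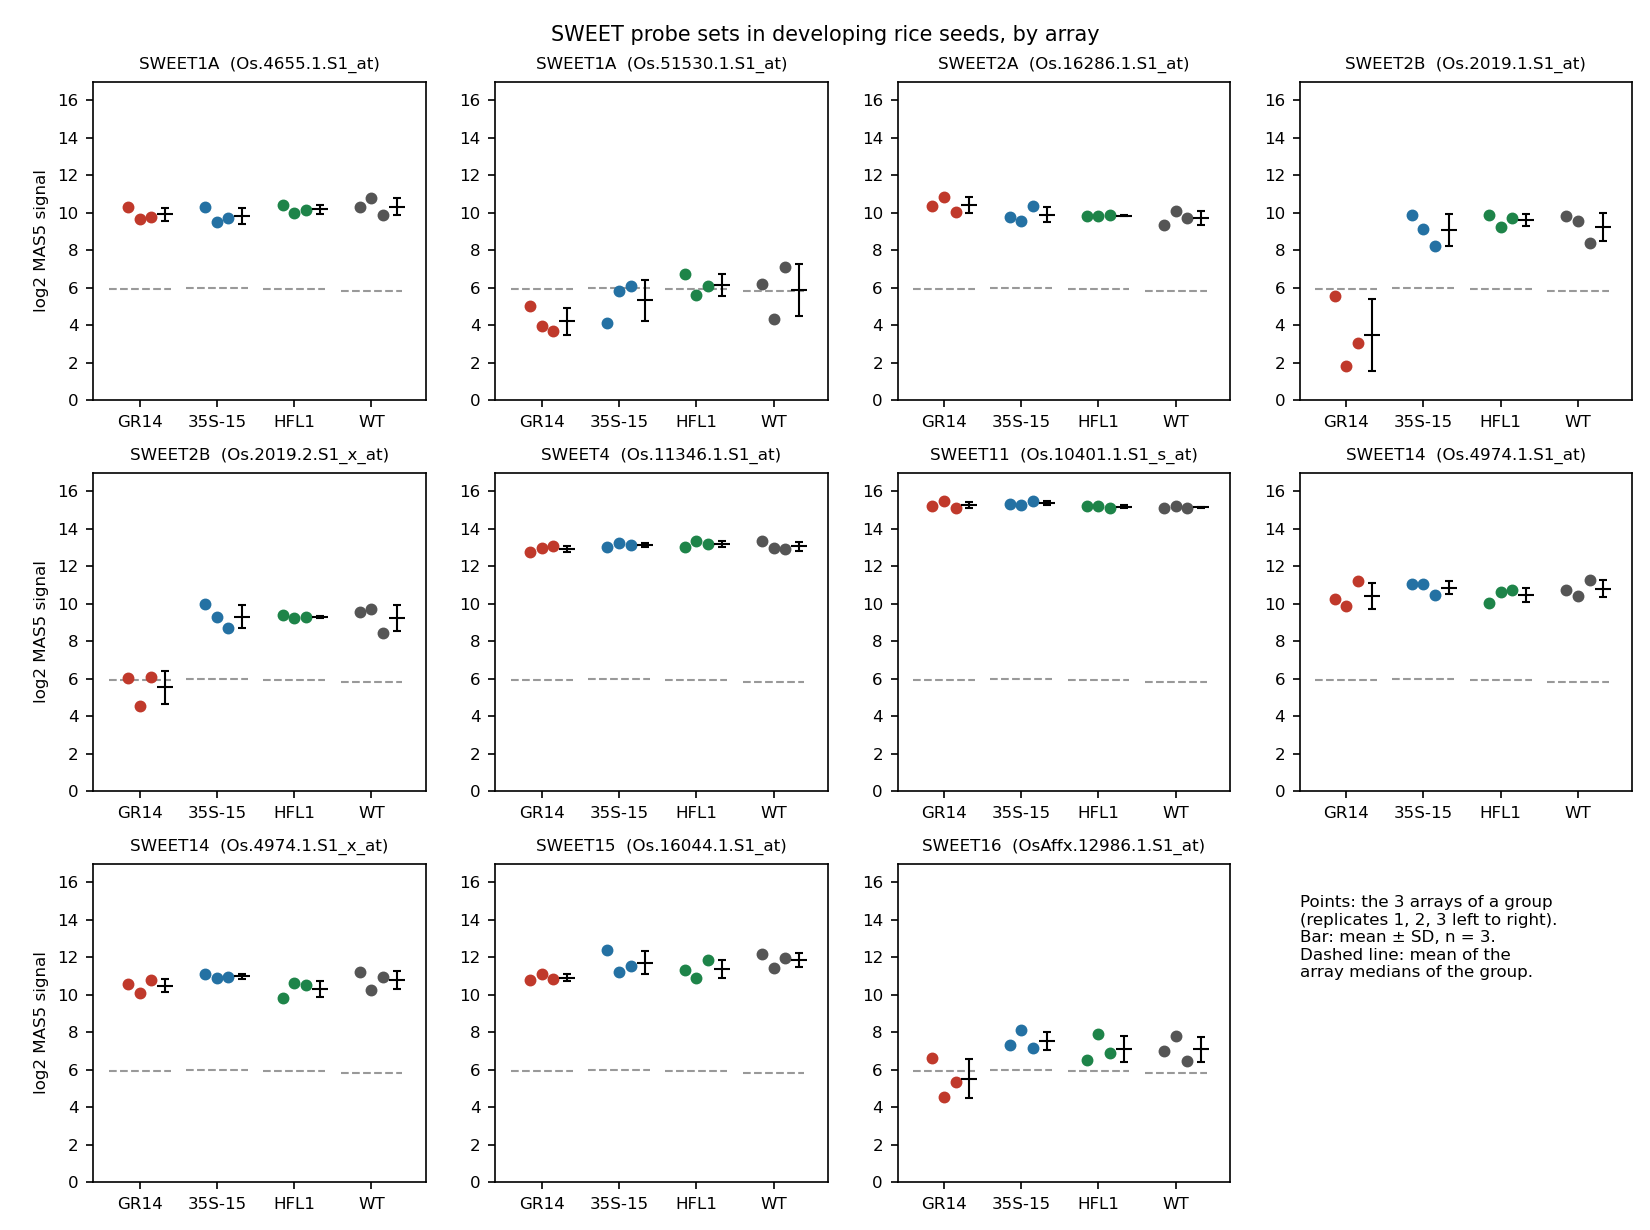
Log2 MAS5 signal (vertical axis) of each SWEET probe set on the 3 arrays of GR14, 35S-15, HFL1 and WT (points), with the group mean ± SD (bar, n = 3) and the mean of the group's array medians (dashed line). For SWEET2B (S1_at probe set) the GR14 points lie between 1.81 and 5.58, under the dashed line, while the other 9 lie between 8.21 and 9.90; the points of SWEET4 and SWEET11 lie almost level across groups.

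Over the whole family, 2 of 11 probe sets were called in GR14 minus WT at an adjusted p under 0.05, both lower and both from SWEET2B, where 5.66% of all 31792 tested probe sets were called and 2.96% were called lower. For 3 of 11 probe sets the GR14 and WT arrays did not overlap, namely both of SWEET2B and that of SWEET15, all lower in GR14, where 25.0% of all tested probe sets did not overlap. The median difference over the members was -0.41, against 0.03 over all tested probe sets, and 9 of the 11 differences were negative. Those 9 include both probe sets of SWEET1A, SWEET2B and SWEET14, and the family as a whole was not tested. The 9 probe sets of the genes other than SWEET2B did not pass. With WT array 1 as the only WT array the count was also 2, beside 737 of 31065 probe sets tested in that setting (2.37%).

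SWEET2A, of the same SWEET2 type, had its highest mean in GR14. It read 10.37, 10.87 and 10.04 on the GR14 arrays, 9.76, 9.57 and 10.34 on the 35S-15 arrays, 9.83, 9.84 and 9.87 on the HFL1 arrays, and 9.37, 10.10 and 9.75 on the WT arrays. The GR14 mean was 10.43 ± 0.42 against 9.74 ± 0.37 in WT (SD, n = 3), and the groups overlapped. The difference of 0.69 ± 0.25 (SE) did not pass (limma adjusted p = 0.131), with a 95% interval from 0.16 to 1.22.

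The probe sets of SWEET1A, whose Arabidopsis relative SWEET1 carries glucose, disagreed. The bright one, well above the array medians, read 10.32, 9.66 and 9.77 on the GR14 arrays, 10.31, 9.49 and 9.70 on the 35S-15 arrays, 10.43, 9.97 and 10.17 on the HFL1 arrays, and 10.31, 10.79 and 9.87 on the WT arrays. All groups overlapped there, and GR14 minus WT was -0.41 ± 0.27 (SE, limma adjusted p = 0.426). The dim one read 5.05, 3.95 and 3.69 on the GR14 arrays, 4.10, 5.83 and 6.07 on the 35S-15 arrays, 6.74, 5.61 and 6.11 on the HFL1 arrays, and 6.19, 4.37 and 7.11 on the WT arrays. It rose above the array median on only 4 of 12 arrays, none of them GR14 or 35S-15, and its GR14 minus WT difference of -1.66 ± 0.79 did not pass (adjusted p = 0.258). Over the 12 arrays the SWEET1A probe sets correlated at r = -0.03, compared with 0.75 for the SWEET14 pair.

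SWEET11 and SWEET4, well known from rice grain filling, varied little between groups. SWEET11, the sucrose transporter of the seed, was measured by an s_at probe set and gave 15.23, 15.45 and 15.10 on the GR14 arrays, 15.35, 15.29 and 15.51 on the 35S-15 arrays, 15.20, 15.24 and 15.10 on the HFL1 arrays, and 15.10, 15.19 and 15.12 on the WT arrays. The 12 arrays spanned only 0.41 log2 units, against a median span of 1.26 over all tested probe sets. GR14 minus WT was 0.12 ± 0.12 (SE), with a 95% interval from -0.14 to 0.39 and a limma adjusted p of 0.617. Saturation of such bright probe sets could not be checked with the values used here. An s_at probe set can share probes with other transcripts, so its reading may include signal that is not SWEET11.

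SWEET4, the hexose transporter of seed filling, had the next smallest span of the family. It read 12.76, 12.97 and 13.09 on the GR14 arrays, 13.02, 13.22 and 13.12 on the 35S-15 arrays, 13.01, 13.34 and 13.21 on the HFL1 arrays, and 13.34, 12.96 and 12.90 on the WT arrays. The span over 12 arrays was 0.58, and GR14 minus WT was -0.13 ± 0.15 (SE, limma adjusted p = 0.679), with a 95% interval from -0.45 to 0.19. For SWEET4 a difference between GR14 and WT larger than 0.45 log2 units in either direction lies outside that interval.

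SWEET15, which works beside SWEET11 in sucrose supply to the endosperm, was lower in GR14 without passing the test. It read 10.77, 11.12 and 10.84 on the GR14 arrays, 12.40, 11.21 and 11.55 on the 35S-15 arrays, 11.34, 10.92 and 11.84 on the HFL1 arrays, and 12.16, 11.45 and 11.98 on the WT arrays. Every GR14 array lay below every array of WT and of 35S-15, while HFL1 overlapped GR14 through its array 2. The mean was 10.91 ± 0.19 in GR14 against 11.87 ± 0.37 in WT (SD, n = 3), and the difference was -0.96 ± 0.30 (SE, limma adjusted p = 0.0814). This result lies near the threshold, since it passed when GR14 and WT were fitted alone (adjusted p = 0.0326) and without 35S-15 replicate 1 (adjusted p = 0.0364). With WT array 1 as the only WT array it was -1.25 (adjusted p = 0.176). SWEET15 in 35S-15 minus GR14 was 0.81 ± 0.30 (adjusted p = 0.14), and in HFL1 minus GR14 it was 0.46 ± 0.30 (adjusted p = 0.42).

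SWEET14, a sucrose transporter also known in rice as a target of bacterial blight effectors, varied within each group. Its S1_at probe set read 10.23, 9.88 and 11.21 on the GR14 arrays, 11.03, 11.06 and 10.45 on the 35S-15 arrays, 10.02, 10.60 and 10.72 on the HFL1 arrays, and 10.73, 10.40 and 11.28 on the WT arrays. Its x_at probe set read 10.59, 10.08 and 10.81 on the GR14 arrays, 11.12, 10.88 and 10.94 on the 35S-15 arrays, 9.85, 10.64 and 10.50 on the HFL1 arrays, and 11.21, 10.25 and 10.94 on the WT arrays. GR14 and WT overlapped on both, and GR14 minus WT was -0.36 ± 0.33 (SE, limma adjusted p = 0.581) and -0.30 ± 0.26 (adjusted p = 0.566) for the 2 probe sets.

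SWEET16, of the vacuolar membrane type, was dim and lowest in GR14. It read 6.63, 4.57 and 5.37 on the GR14 arrays, 7.31, 8.10 and 7.19 on the 35S-15 arrays, 6.52, 7.89 and 6.91 on the HFL1 arrays, and 7.03, 7.78 and 6.45 on the WT arrays. Only 1 of 3 GR14 arrays was above its array median, while every array of the other groups was. GR14 array 1 reached into the ranges of HFL1 and WT but not into that of 35S-15.

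SWEET16 in 35S-15 minus GR14 was 2.01 ± 0.54 (SE) and passed (limma adjusted p = 0.0431), with means of 7.54 ± 0.49 in 35S-15 and 5.52 ± 1.04 in GR14 (SD, n = 3). The call was fragile. It passed in 9 of 21 alternative settings, with adjusted p from 0.0143 to 0.162, and it was lost with no filter, no intensity trend, array weights, the compared groups alone or WT array 1 as the only WT array. It was also lost without WT replicate 1, without GR14 replicate 2 or 3, without any of the 35S-15 replicates or without HFL1 replicate 3. GR14 minus WT was -1.56 ± 0.54 (adjusted p = 0.116) and HFL1 minus GR14 was 1.59 ± 0.54 (adjusted p = 0.103). Without GR14 replicate 1 these last differences passed, at -2.12 (adjusted p = 0.0414) and 2.14 (adjusted p = 0.0341).

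**Figure D2:**
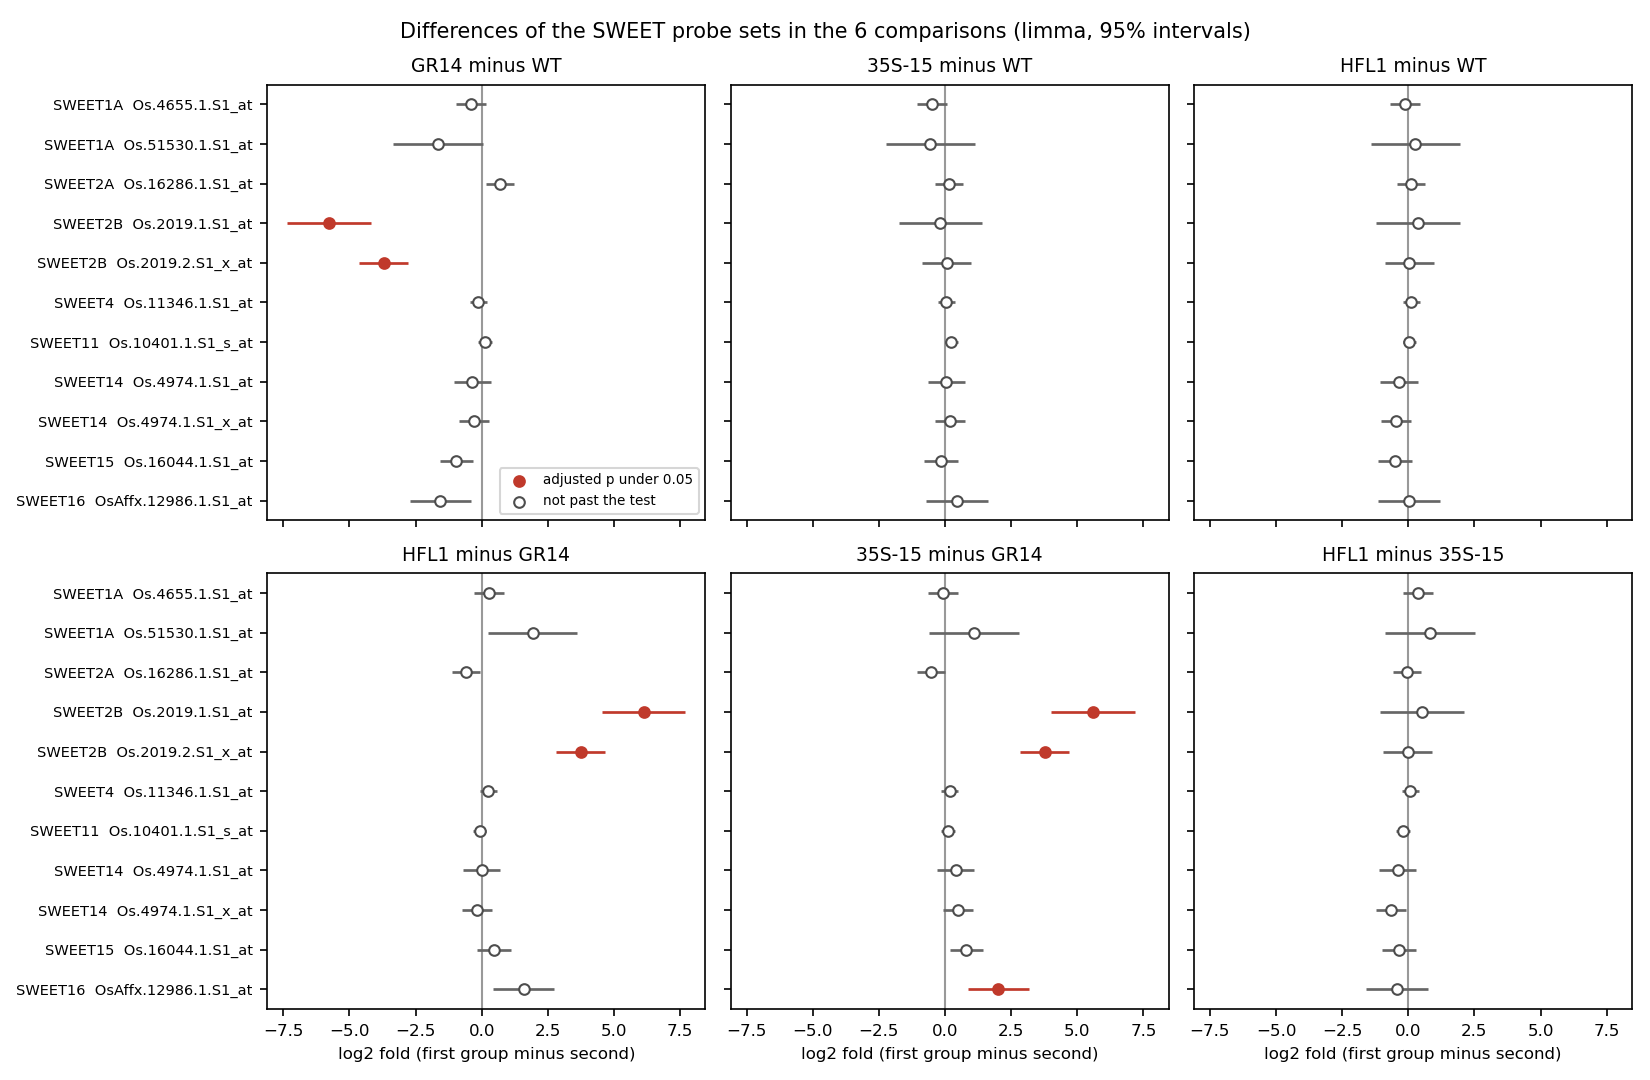
Log2 difference (horizontal axis, first group minus second) of each SWEET probe set in the 6 comparisons, with 95% intervals from limma; filled red points have an adjusted p under 0.05. Filled points appear only in the 3 comparisons that include GR14: SWEET2B in each, from -5.77 to 6.12, and SWEET16 at 2.01 in 35S-15 minus GR14.

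No SWEET probe set passed the test in 35S-15 or in HFL1 against WT. In 35S-15 minus WT, 0 of 11 were called by limma, where 0.0283% of all tested probe sets were called, and the lowest adjusted p was 0.805. None of the 11 had an unadjusted p under 0.05 there, against 1969 of all 31792. The differences ran from -0.55, for the dim SWEET1A probe set, to 0.45, for SWEET16. SWEET11 was the 1 probe set without overlap, higher in 35S-15, where 11.1% of all tested probe sets had none.

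In HFL1 minus WT, 0 of 11 were called by limma, where 0.0283% of all tested probe sets were called. None of the 11 had an unadjusted p under 0.05, against 2142 of all 31792. No probe set was without overlap, against 12.9% of all tested. The differences ran from -0.50, for SWEET15, to 0.35, for SWEET2B (S1_at probe set), with a lowest adjusted p of 0.794. For SWEET2B in HFL1 minus WT the 95% interval ran from -1.23 to 1.94, so a change of moderate size in that line was not detectable with 3 arrays. With WT array 1 as the only WT array, the SWEET counts against WT were also 0 in both lines, where 0.0837% of all 31065 probe sets tested in that setting were called in 35S-15 and 0.0773% in HFL1.

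Between lines, HFL1 and GR14 differed for 2 of 11 probe sets, both higher in HFL1 and both from SWEET2B, where 6.71% of all tested probe sets were called and 3.92% were called higher. Here 4 of 11 did not overlap, against 26.3% of all tested. Besides SWEET2B these were the dim SWEET1A probe set, higher in HFL1, and SWEET2A, lower in HFL1. The dim SWEET1A probe set met the signal filter only through 2 HFL1 and 2 WT arrays. All of its GR14 values lay below the array medians, so its place in this count carries no weight. Line 35S-15 differed from GR14 for 3 of 11, all higher in 35S-15 and covering SWEET2B and SWEET16, where 5.94% were called and 3.42% were called higher. Without overlap were 5 of 11, all higher in 35S-15, against 24.2% of all tested, and SWEET14 (x_at probe set) and SWEET15 completed that set.

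HFL1 and 35S-15 differed for 0 of 11 probe sets by limma, where 0.00629% of all tested were called. An unadjusted p under 0.05 was found for 1 of the 11, against 1418 of all 31792. Their differences ran from -0.65, for SWEET14 (x_at probe set), to 0.82, for the dim SWEET1A probe set. SWEET11 and SWEET14 (x_at probe set) did not overlap and were lower in HFL1, making 2 of 11, against 9.34% of all tested.

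The other genes of sugar supply were listed by symbol and comprised further SWEET genes, sucrose and hexose symporters, invertases, sucrose synthases and regulators. Of 27 such genes in the annotation, 24 had a probe set and 18 were tested, through 20 probe sets. Each call below came from 1 probe set of its gene, so counts of genes and of probe sets are equal. GR14 minus WT had 1 gene called higher and 3 called lower, where 5.66% of all tested probe sets were called, with a median difference of -0.05 against 0.03 over all tested probe sets. Against WT, 0 were called in 35S-15 and 0 in HFL1, where 0.0283% of all tested were called in each, and between those lines 0 were called, where 0.00629% of all tested were. HFL1 minus GR14 had 3 called higher (6.71% of all tested called), while 35S-15 minus GR14 had 3 called higher and 1 lower (5.94% of all tested called).

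MST3, a monosaccharide and proton symporter, rose in GR14, which read 10.73, 10.73 and 11.26, against 9.94, 9.94 and 10.15 in WT. The groups did not overlap, and the difference was 0.90 ± 0.19 (SE, limma adjusted p = 0.0153). Line 35S-15, at 9.88, 10.11 and 9.69, lay below GR14 by a difference of -1.02 (adjusted p = 0.00652), a call that held in all 22 alternatives. HFL1, at 10.61, 10.08 and 10.62, lay below GR14 and overlapped 35S-15, and HFL1 minus GR14 did not pass (adjusted p = 0.178).

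SUT2, a sucrose and proton symporter of the vacuolar membrane in rice, fell in GR14 on its bright probe set. That probe set read 10.96, 10.71 and 10.67 on the GR14 arrays, 11.43, 11.31 and 11.29 on the 35S-15 arrays, 11.56, 11.46 and 11.34 on the HFL1 arrays, and 11.68, 11.21 and 11.26 on the WT arrays. GR14 lay below all others, with GR14 minus WT at -0.60 ± 0.15 (limma adjusted p = 0.029). HFL1 minus GR14 was 0.67 (adjusted p = 0.0145) and 35S-15 minus GR14 was 0.56 (adjusted p = 0.0383). The dimmer SUT2 probe set, whose name ends in a_at, had a difference of the opposite sign, 0.68 ± 0.50 in GR14 minus WT, which did not pass (adjusted p = 0.485).

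NIN1, a neutral invertase that splits sucrose inside the cell, was lower in GR14 at 9.47, 9.47 and 9.58, against 10.23, 10.21 and 9.99 in WT. GR14 minus WT was -0.64 ± 0.16 (limma adjusted p = 0.0333), HFL1 minus GR14 was 0.68 (adjusted p = 0.0211) and 35S-15 minus GR14 was 0.74 (adjusted p = 0.0137). CIN1, a cell wall invertase that splits sucrose outside the cell, read 8.60, 8.86 and 8.47 on the GR14 arrays, 9.63, 10.20 and 8.95 on the 35S-15 arrays, 10.03, 10.15 and 10.02 on the HFL1 arrays, and 9.20, 9.59 and 9.51 on the WT arrays. It was higher in HFL1 than in GR14 by 1.42 ± 0.25 (adjusted p = 0.00413), in all 22 alternatives as well, and higher in 35S-15 than in GR14 by 0.95 ± 0.25 (adjusted p = 0.0426), in 7 of 22 alternatives.

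NFYB1, a nuclear factor Y subunit of the rice endosperm known to act on sucrose transporter genes, had another pattern. It read 13.38, 13.25 and 13.20 on the GR14 arrays, 13.30, 12.86 and 13.10 on the 35S-15 arrays, 13.34, 12.85 and 13.35 on the HFL1 arrays, and 13.92, 14.03 and 14.02 on the WT arrays. All 9 arrays of the lines lay below the 3 WT arrays. GR14 minus WT passed at -0.72 ± 0.15 (limma adjusted p = 0.0151), whereas 35S-15 minus WT at -0.91 ± 0.15 (adjusted p = 0.0939) and HFL1 minus WT at -0.81 ± 0.15 (adjusted p = 0.267) did not.

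The supply calls between GR14 and WT rested on small differences and were sensitive to single arrays. Counting changes of processing as well, the call held in 16 of 22 alternatives for SUT2, 18 for MST3, 12 for NIN1 and 18 for NFYB1. With WT array 1 as the only WT array, SUT2 passed (-0.90, limma adjusted p = 0.0287), whereas MST3 (0.97, adjusted p = 0.126), NIN1 (-0.73, adjusted p = 0.16) and NFYB1 (-0.65, adjusted p = 0.217) did not. The SUT2 call in GR14 minus WT was lost without WT replicate 1 (adjusted p = 0.1), GR14 replicate 2 (0.103) or GR14 replicate 3 (0.085), and the MST3 call without WT replicate 1 (0.0533), WT replicate 2 (0.0598) or GR14 replicate 3 (0.0557). The NFYB1 call was lost without WT replicate 2 (adjusted p = 0.0582) or GR14 replicate 2 (0.0566), and the NIN1 call without WT replicate 1 (0.0997) or 2 (0.108), any of the GR14 replicates (0.0889, 0.104 and 0.0557) or HFL1 replicate 1 (0.0506).

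The supply calls against GR14 were also sensitive to single arrays, apart from those of MST3 in 35S-15 and CIN1 in HFL1. Over all 22 alternatives, SUT2 held in 19 in HFL1 minus GR14 and NIN1 in 16. In 35S-15 minus GR14, SUT2 held in 10 (limma adjusted p up to 0.207) and NIN1 in 20. In HFL1 minus GR14, SUT2 lost its call without GR14 replicate 2 (limma adjusted p = 0.0614) or HFL1 replicate 1 (0.0701), and NIN1 without GR14 replicate 1 (0.0641) or 2 (0.0749) or HFL1 replicate 1 (0.0657) or 2 (0.0706). In 35S-15 minus GR14, NIN1 lost its call without GR14 replicate 2 (adjusted p = 0.0527), and SUT2 without GR14 replicate 2 or 3, any of the 35S-15 replicates or HFL1 replicate 1 or 3 (0.0508 to 0.124). CIN1 in 35S-15 minus GR14 lost its call without WT replicate 2 or 3, any of the GR14 replicates, 35S-15 replicate 1 or 2, or any of the HFL1 replicates (adjusted p from 0.052 to 0.139).

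**Figure D3:**
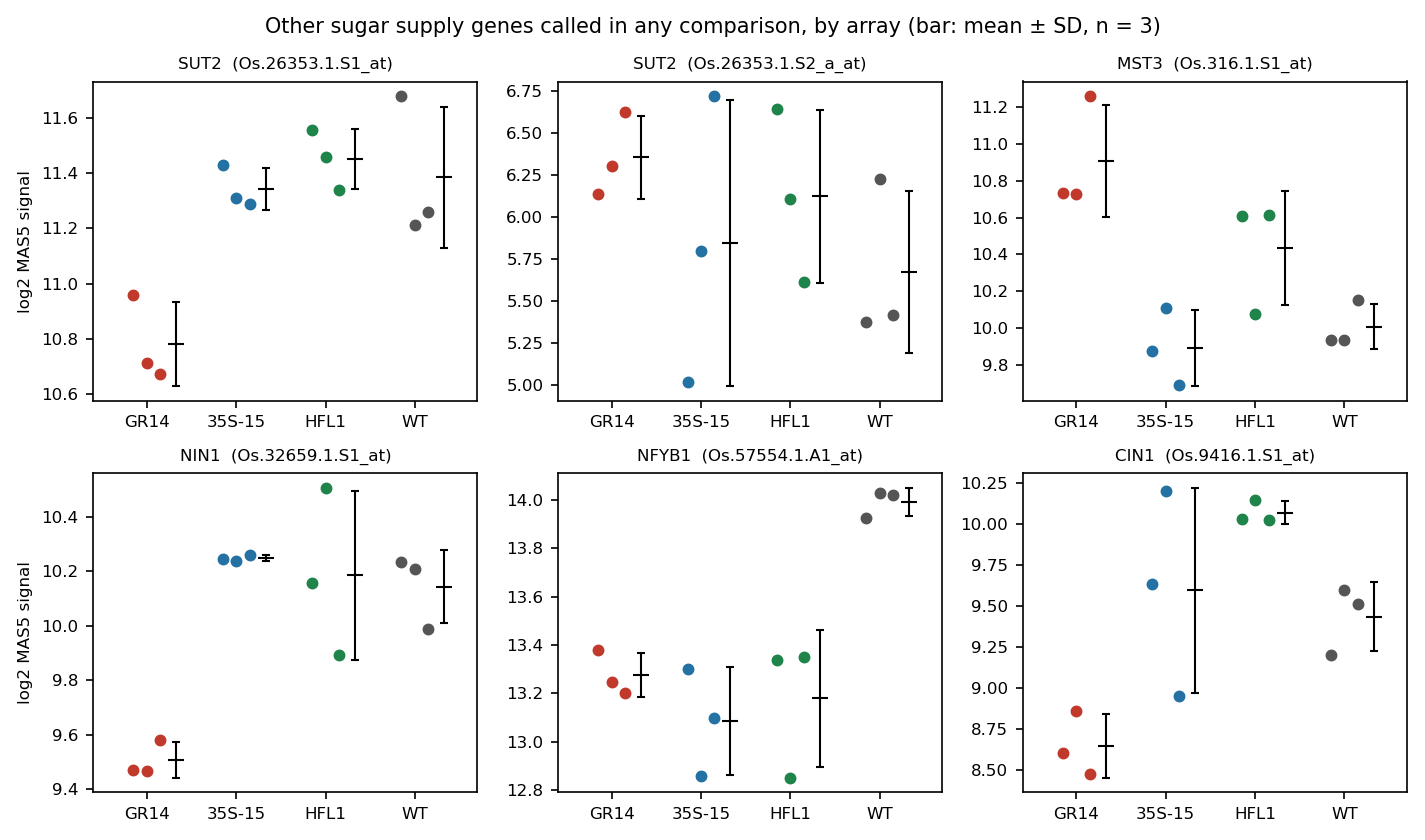
Log2 MAS5 signal (vertical axes, each with its own range) of the 5 other sugar supply genes called in any comparison, 1 point per array, with the group mean ± SD (bar, n = 3). GR14 is the lowest group for SUT2 (bright probe set), NIN1 and CIN1 and the highest for MST3, while WT, between 13.92 and 14.03, lies above all lines for NFYB1.

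Some markers of other seed tissues moved with GR14, and their part in the SWEET differences was not tested. Of 7 green pericarp genes tested, 5 were called lower in GR14 minus WT (RCAA1, PSAG, RCABP89, PORA and RCABP69) and 0 higher. These calls came from 8 of 14 probe sets, where 2.96% of all tested probe sets were called lower. RCAA1 alone gave 4 of the 8, and the second PSAG probe set was not called (-1.80, limma adjusted p = 0.341). The median difference over the 14 probe sets was -1.86. The list was mixed, since CAB2R and RBCS were not called there. CAB2R differed by 0.09 and -0.03 on its probe sets, and RBCS by -0.28, 0.10 and -0.01. The summed signal of the 7 genes was 54100 to 57500 in GR14, 99900 to 134000 in 35S-15, 98500 to 119000 in HFL1 and 84100 to 92800 in WT. GR14 thus lay below the other groups without overlap, as it did for SWEET2B, and no green marker was at 0 or below the median on every array. The same number of green genes, 5 of 7, was called higher in HFL1 minus GR14 and in 35S-15 minus GR14, through 8 of 14 probe sets in each. There 3.92% and 3.42% of all tested probe sets were called higher, and these comparisons share the GR14 arrays.

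Fewer endosperm and embryo markers were called in GR14 minus WT. Among 9 endosperm genes tested, only SSI, a starch synthase, was called there, through 1 of 18 probe sets. Of all tested probe sets 5.66% were called in that comparison. SSI was higher in GR14 by 1.26 ± 0.31 (limma adjusted p = 0.0291). The summed endosperm signal was 313000 to 420000 in GR14 and 281000 to 326000 in WT, so the groups overlapped. In 35S-15 it was 331000 to 486000, above WT without overlap. Among 8 embryo and aleurone genes, only VP1, a transcription factor of seed maturation, was called in GR14 minus WT, through 1 of 10 probe sets. It was higher by 1.25 ± 0.26 (adjusted p = 0.0139). VP1 was also called in HFL1 minus GR14 at -1.89 (adjusted p = 0.000678) and in 35S-15 minus GR14 at -1.50 (adjusted p = 0.00398). Of all tested probe sets 6.71% and 5.94% were called there. The list median was 0.33 in GR14 minus WT, 0.24 in 35S-15 minus WT and -0.59 in HFL1 minus WT. Between lines it was -0.91 in HFL1 minus GR14, -0.04 in 35S-15 minus GR14 and -1.01 in HFL1 minus 35S-15. Medians over all tested probe sets lay between -0.02 and 0.03 in these comparisons. The summed embryo and aleurone signal was 33800 to 92600 in GR14 and 17500 to 86600 in WT, a wide overlap. In 35S-15 that sum was 49700 to 83900, and in HFL1 17200 to 54900.

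The genes most like SWEET2B over the 12 arrays were sought among 2786 tested probe sets with an informative gene symbol outside the family, by Pearson correlation of log2 signal. For the S1_at probe set the 5 nearest were GLK1 at r = 0.99, CLA1 at 0.98, COA20 at 0.97, OsTrxf at 0.97 and CML10 at 0.97. For the x_at probe set they were COA20 at 0.99, BGLU19, GLK1, CAO and OsTrxf, the last 4 at 0.97. GLK1, COA20 and OsTrxf were on both lists, which hold 7 genes in all. GLK1 is a transcription factor of chloroplast development, CAO makes chlorophyll b, and OsTrxf is a thioredoxin of the plastid. The roles of CLA1, COA20, CML10 and BGLU19 are not described here, and a shared function of the 7 genes was not tested.

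These correlations span the gap between GR14 and the other groups. Over the 9 arrays outside GR14, r with the S1_at probe set was 0.77 for GLK1, 0.58 for CLA1, 0.87 for COA20, 0.91 for OsTrxf and 0.80 for CML10. With the x_at probe set it was 0.82 for COA20, 0.84 for BGLU19, 0.68 for GLK1, 0.71 for CAO and 0.73 for OsTrxf. The arrays share their scaling and, within a group, their strain, so no test is given. SWEET2B varied mainly through its low GR14 level, so genes picked for a high correlation with it were bound to be low in GR14. Their GR14 levels are therefore description and not a separate finding. All 7 genes were lower in GR14 than in WT, with differences from -4.67 ± 0.54 for CLA1 to -1.11 ± 0.21 for CML10 (SE). The other values were -2.14 for GLK1, -1.92 for COA20, -2.10 for OsTrxf, -2.47 for BGLU19 and -2.34 for CAO. The GR14 values of CLA1, like those of SWEET2B on the S1_at probe set, lay below the array medians, so the sizes of those 2 differences are uncertain and are not ranked.

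**Figure D4:**
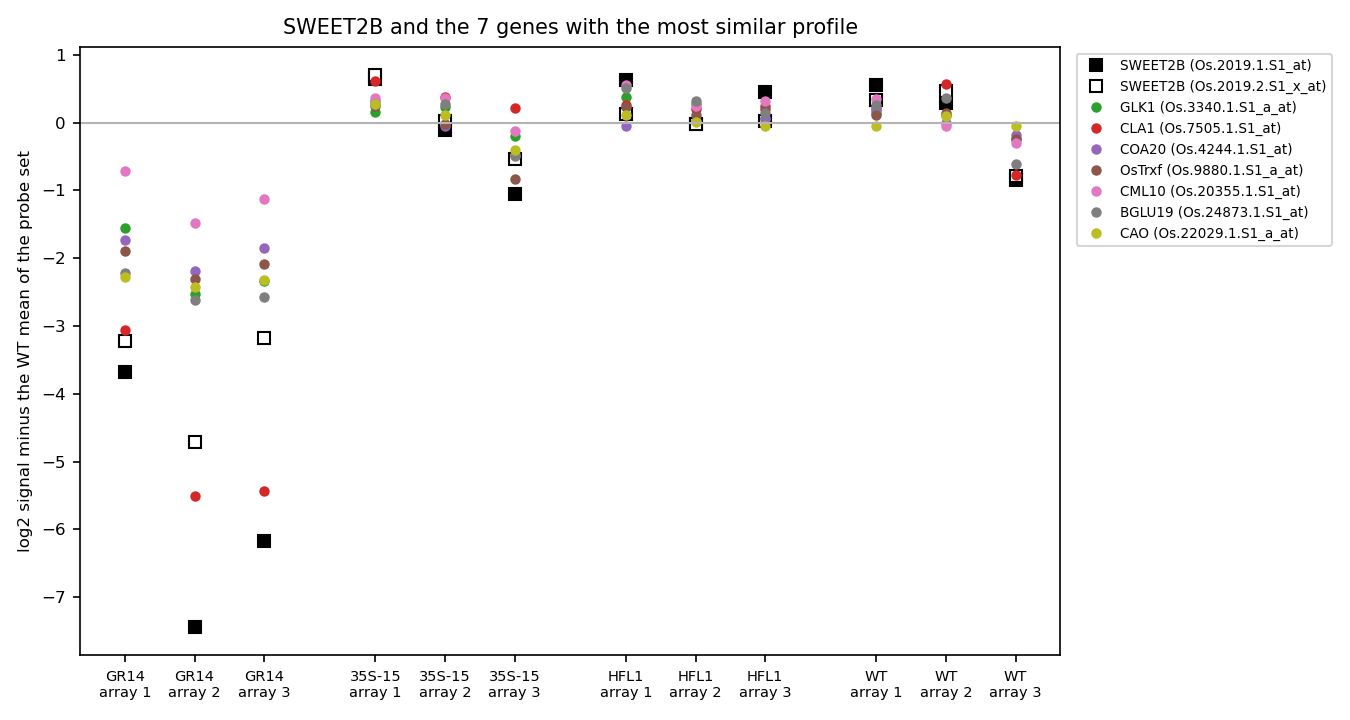
Log2 signal of the SWEET2B probe sets (squares) and of the 7 genes with the most similar profile (circles), each minus its own WT mean (vertical axis), on the 12 arrays (horizontal axis). All lie below 0 on the 3 GR14 arrays, which for the 7 genes follows from how they were picked. Elsewhere all lie within about 1 log2 unit of 0, and the lowest points there are those of 35S-15 array 3 and WT array 3.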

How the data were processed

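The deposited intensity is 1 linear signal for each probe set, made with MAS5 per the submitters' processing notes, with version and settings not given in the sources used here. Total RNA (6 ug) was labelled by the standard Affymetrix procedure, per the labels' protocols. After trimming 2% from each end, the mean signal was 500.1 on every array, so the authors had scaled the deposited intensity, and no pair of arrays was identical. Arrays have no sequencing depth, and their number limits the precision. The number of value columns not used was 0.

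Arrays were grouped by the strain label and numbered in accession order. Log2 of the deposited signal was taken without further normalization. Probe sets above their array's median on at least 3 of 12 arrays were tested, without AFFX and RPTR controls. All 12 arrays were fitted together with limma 3.58.1 in R 4.3.3 (lmFit, eBayes with an intensity trend, two-sided, Benjamini-Hochberg over all 31792 tested probe sets, 6 comparisons, threshold 0.05). The fit was also run on simulated data with independent noise around the mean of each probe set. That check did not model the WT arrays that stand apart, so it does not bear on them. Errors of differences are SE, and errors of levels are SD.

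Genes came from an array annotation updated through the RefSeq table of assembly ASM3414082v1. No coordinates are given, because the files name no genome build, and no sequences are given. Symbols shared with unrelated genes (GT2, GT3, RSS1, RSS3) were left out of the lists, as was a gene that carries SUT2 as an older name. All SWEET members were named, every other supply gene that passed in any comparison, and the 5 genes most like each called SWEET2B probe set. The members and lists were chosen with earlier results of these data known. The results were recomputed with quantile normalization, with median centring, without the filter, with a 70th percentile filter, log2(signal + 50), no intensity trend, array weights, the compared groups alone, no x_at or s_at probe sets, WT array 1 alone, and leaving out each array.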

Additional observations from a re-analysis of the deposited data

How the results depend on the processing

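The SWEET2B calls in the 3 comparisons with GR14 held in all 22 alternatives for the S1_at probe set and in all 21 for the x_at probe set, with GR14 minus WT from -6.81 to -3.31 and from -4.10 to -2.74. The smallest sizes came from log2(signal + 50), which compresses low signals by construction. Without x_at and s_at probe sets the SWEET count was 1 of 8 in GR14 minus WT and 1 of 8 in HFL1 minus GR14, because that setting drops a SWEET2B probe set. The other 130 of 132 SWEET counts were within 1.5 times of those reported. SWEET11 in GR14 minus WT was -0.089 under quantile normalization, and SWEET2B (S1_at probe set) in HFL1 minus WT was -0.20 with WT array 1 as the only WT array. Leaving out 1 array at a time gave -0.211 to 0.0077 for SWEET4 in GR14 minus WT, -1.31 to 0.0656 for SWEET1A (dim probe set) in 35S-15 minus WT, and -0.0698 to 0.628 for SWEET2B (S1_at probe set) in HFL1 minus WT, none of which passed the test in any alternative. The cause was not tested. Of 776 differences over 36 results, 692 kept their direction and side of the threshold, 74 lost the call, 4 gained one and 6 changed sign. Counts over all probe sets ranged from 737 to 1961 (reported 1799) in GR14 minus WT, 6 to 26 (9) in 35S-15 minus WT, 6 to 24 (9) in HFL1 minus WT, 1167 to 3021 (2133) in HFL1 minus GR14, 1123 to 2049 (1889) in 35S-15 minus GR14 and 1 to 3 (2) in HFL1 minus 35S-15. No paired analysis was possible because the titles carry no replicate number within a group and the numbers used follow accession order.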
